A study of Mus musculus with 4 samples.

Results

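The T-type calcium channel pore subunits of the mouse are encoded by 3 genes, Cacna1g, Cacna1h and Cacna1i, whose proteins are named CaV3.1, CaV3.2 and CaV3.3. They were taken from the table by gene name, 3 of 48395 genes. The family was chosen by the measured FPKM of these same libraries, in which Cacna1g had already stood out between the groups. The differences of its members between the groups are therefore described here and not tested. RNA came from cells sorted from the cortex of ICR mouse embryos. In the Zeb1 group, 2 libraries, the cortex had been electroporated in utero at E14.5 with a plasmid in which the CAG promoter drives Zeb1 and the fluorescent protein ZsGreen. In the control group, also 2 libraries, the plasmid had the same promoter and ZsGreen without Zeb1. Both groups were collected at E16.5, 48 hours later, and sorted for fluorescence. CAG is active in most cell types, so the promoter does not choose which of the electroporated cells express the plasmid. The labels do not say whether embryos were pooled or whether the libraries come from separate litters, so the spread given here is that between these samples.

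Voltage-gated calcium channels are built around a large pore subunit that also holds the voltage sensors. The T-type, or low-voltage-activated, channels open close to the resting potential, inactivate quickly, and can give a calcium current without the auxiliary subunits that high-voltage channels rely on. Their current underlies low-threshold spikes and rebound bursts. CaV3.1 is the main T-type channel of thalamic relay neurons, CaV3.2 is prominent in sensory neurons, and CaV3.3, the slowest of the family, is prominent in the reticular nucleus of the thalamus.

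ZEB1 is a zinc-finger repressor that binds E-box sequences with the core CACCT, often extended to CACCTG. Among the members, 1 of 3, Cacna1i, matched an entry in the RefSeq promoter table (GRCm38.p6), and Cacna1g and Cacna1h did not. The 250 bases before its start, chr15:80286988-80287237 on the + strand, are shown as the only window of a member in that table. The capitals mark each match to CACCT on either strand, with the sixth base of CACCTG where present.
Cacna1i: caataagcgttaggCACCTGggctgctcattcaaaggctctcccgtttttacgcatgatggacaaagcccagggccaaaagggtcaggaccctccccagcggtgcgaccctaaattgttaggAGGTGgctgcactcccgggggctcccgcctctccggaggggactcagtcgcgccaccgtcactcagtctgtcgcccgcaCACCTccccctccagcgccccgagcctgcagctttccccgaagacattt
CACCTG, searched as CACCTG or CAGGTG, occurred once, from 236 to 231 bases before the start. CACCT, searched as CACCT or AGGTG, occurred at 3 places, the first inside that CACCTG, another on the opposite strand from 128 to 124 bases before the start, and the last from 49 to 45. Of 32851 promoter windows of 250 bases in the table, 17.2% held CACCTG and 46.0% held CACCT at 1 or more places. CACCT occurred at 4 or more places in 0.7%, and the share with 3 places was not counted. A match is a description of the letters and not evidence of binding.

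In the whole table, the gene on the plasmid separated the groups. Zeb1 had 5622 and 6227 FPKM (fragments per kilobase of transcript, scaled to library size, the unit of the authors' table) in the Zeb1 libraries, against 35.2 and 18.6 FPKM in the control libraries. Between 13647 and 13997 genes per library reached 1 FPKM. The absolute depth is unknown. The value of a single read, estimated from genes under 200 bp, relative to that in control replicate 1 was 1.01 in Zeb1 replicate 1, 0.964 in Zeb1 replicate 2 and 0.993 in control replicate 2. Markers of the cortical excitatory lineage were present in all 4 libraries. Of the 10 listed, 5 had both Zeb1 libraries below both controls and 0 had both above. Among all genes that averaged 1 FPKM or more, 19.5% had both below and 18.2% had both above. The lineage gene Tbr1 had 64.8 and 74.8 FPKM in the Zeb1 libraries, against 116 and 119 FPKM in the control libraries. Neurod2, a transcription factor gene of cortical excitatory neurons, had 353 and 347 FPKM in the Zeb1 libraries and 353 and 384 FPKM in the control libraries. Microglial genes stood apart most in control replicate 2. The 10 markers listed summed to 843 and 453 FPKM in the Zeb1 libraries and to 459 and 117 FPKM in the control libraries, and 0 of the 10 were at 0 in all libraries.

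The 3 pore subunits went separate ways. Cacna1g was far higher in Zeb1 cells, Cacna1h was slightly higher, and Cacna1i was far lower from a low level. All 3 had both Zeb1 libraries on 1 side of both controls, Cacna1g and Cacna1h above and Cacna1i below. Of all 14330 genes tested, 18.2% had both Zeb1 libraries above both controls and 19.5% had both below. A gene was tested where its 4 libraries averaged 1 FPKM or more. Of the 3 members, 2 entered the fit, and Cacna1i did not because its mean was under 1 FPKM.

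**Figure D1:**
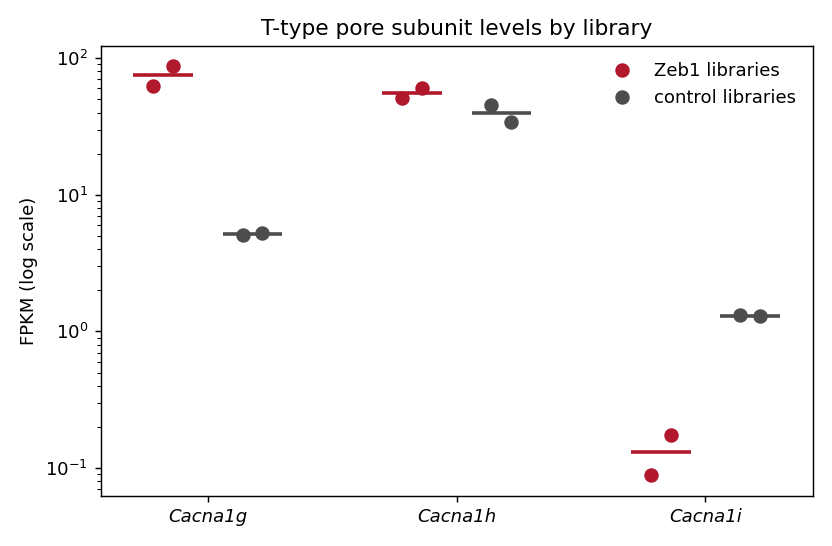
FPKM (vertical log axis) of the 3 T-type pore subunit genes in each library, Zeb1 libraries left and control libraries right, with a bar at the mean of each pair. Cacna1g sits at 62.4 and 87.1 FPKM in the Zeb1 libraries and near 5 FPKM in the controls, Cacna1h lies close together in all 4, and Cacna1i is under 0.2 FPKM in the Zeb1 libraries.

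Cacna1g (ENSMUSG00000020866.17) lies on the - strand of chromosome 11, from 94408391 to 94474198 (GRCm38), and encodes CaV3.1. It had 62.4 and 87.1 FPKM in the Zeb1 libraries, against 5.11 and 5.23 FPKM in the control libraries. The groups did not overlap, the controls were nearly equal, and Zeb1 replicate 2 was the highest library. The mean was 74.7 ± 17.5 FPKM in Zeb1 cells and 5.17 ± 0.0809 FPKM in control cells (SD, n = 2 each), a ratio of 14.4. On the log2(FPKM + 1) scale the difference was 3.60 with a standard error of 0.21 in the limma fit over all genes. Among the protein-coding genes of the table, Cacna1g stood at percentiles 91.8 and 95.5 in the Zeb1 libraries and at 58.2 and 59.4 in the control libraries. By this difference it ranked 3 among the 11916 protein-coding genes tested, with Zeb1 itself at 1.

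Cacna1g was 1 of 12 genes higher in Zeb1 cells at a limma adjusted p under 0.05, which is 0.0837% of those tested. Of the 28 genes called in either direction, 25 were shorter than 200 bp and 3 were protein-coding. The Cacna1g call chose the family and supports nothing here. A fit without any 1 library leaves 1 library in a group, so only the log2 difference of Cacna1g is given for it. That difference stayed between 3.36 and 3.83. The smallest p that an exact permutation of the 4 libraries allows is 0.333, so no such test was run. Another 16 genes, 0.112% of those tested, were called lower, none of them a member.

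Cacna1h (ENSMUSG00000024112.16) lies on the - strand of chromosome 17, from 25374285 to 25433783, and encodes CaV3.2. It had 51.1 and 60.5 FPKM in the Zeb1 libraries, against 45.2 and 34.1 FPKM in the control libraries. The groups did not overlap, but the lower Zeb1 library and the higher control were 51.1 and 45.2 FPKM, closer to each other than the 2 controls were. The mean was 55.8 ± 6.60 FPKM in Zeb1 cells and 39.6 ± 7.85 FPKM in control cells (SD, n = 2 each), a ratio of 1.41. The log2 difference was 0.49 with a standard error of 0.21. It was 0.29 without control replicate 2 and 0.69 without control replicate 1. Cacna1h was not among the genes called.

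Cacna1i (ENSMUSG00000022416.15) lies on the + strand of chromosome 15, from 80287238 to 80398279, and encodes CaV3.3. It had 0.0885 and 0.175 FPKM in the Zeb1 libraries, against 1.32 and 1.29 FPKM in the control libraries. The groups did not overlap, and the controls were nearly equal. The mean was 0.132 ± 0.0609 FPKM in Zeb1 cells and 1.31 ± 0.0209 FPKM in control cells (SD, n = 2 each), so that the control mean was 9.93 times the Zeb1 mean. The difference was -1.03 on the log2(FPKM + 1) scale, which understates a change at so low a level, and -2.63 with a pseudocount of 0.1. No standard error is given, since the gene did not enter the fit. In sorted cells sequenced in bulk, fewer cells that express a gene and less RNA per cell cannot be told apart.

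The gene models behind these values differ in size. Cacna1g has 11 protein-coding transcripts in GENCODE, with a longest of 8383 nt in 38 exons, over a locus of 65.8 kb. Cacna1h has 5, with a longest of 8230 nt in 35 exons, over 59.5 kb. Cacna1i has 4, with a longest of 9781 nt in 37 exons, over 111 kb. FPKM are given per gene and do not separate these isoforms, and since they are per length the levels of the 3 genes can be set side by side.

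The order of the FPKM levels differed between the groups. In both Zeb1 libraries Cacna1g came first, at 1.22 and 1.44 times Cacna1h, followed at a distance by Cacna1i. The Zeb1 values of Cacna1g and Cacna1h lay close together, with 62.4 as the lower Cacna1g and 60.5 as the higher Cacna1h value. In both control libraries Cacna1h came first and Cacna1g stood at 0.113 and 0.153 times its level. Cacna1g was 704 and 499 times as high as Cacna1i in the Zeb1 libraries and 3.87 and 4.05 times in the control libraries. The Zeb1 ratios rest on Cacna1i values near 0.1 FPKM.

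Added together, T-type pore transcripts reached 114 and 148 FPKM in the Zeb1 libraries, against 51.6 and 40.6 FPKM in the control libraries. Cacna1g made up 54.9% and 58.9% of this sum in the Zeb1 libraries and 9.91% and 12.9% in the control libraries. Its mean share was 56.9% ± 2.86 in Zeb1 cells and 11.4% ± 2.10 in control cells (SD, n = 2 each). Cacna1h made up 45.0% and 40.9% in the Zeb1 libraries, against 87.5% and 83.9% in the control libraries. The share of Cacna1i was 0.0779% and 0.118% in the Zeb1 libraries and 2.56% and 3.18% in the control libraries. A share within a library does not change with a library-wide scaling factor.

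**Figure D2:**
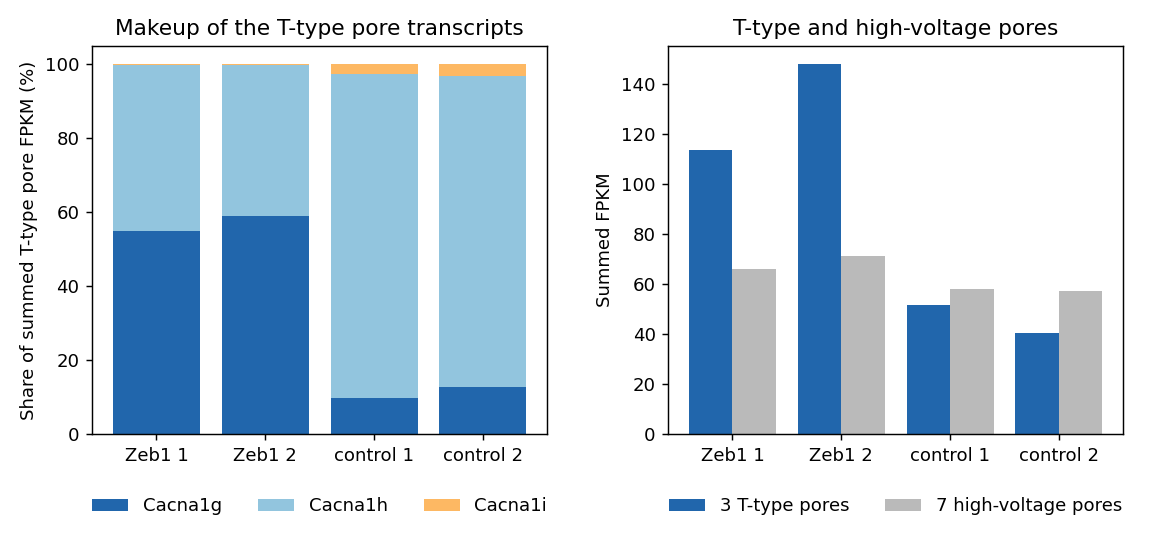
Left, share (%) of each T-type gene in their summed FPKM per library; right, summed FPKM of the 3 T-type and the 7 high-voltage pore genes. Cacna1g holds 54.9% and 58.9% of the T-type sum in the Zeb1 libraries and 9.91% and 12.9% in the controls, and the high-voltage sum lies between 57.1 and 71.2 FPKM in all 4 libraries.

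The pore genes of high-voltage channels are the nearest relatives of these genes. Their 7 genes summed to 66.1 and 71.2 FPKM in the Zeb1 libraries and to 57.9 and 57.1 FPKM in the control libraries. T-type genes thus made up 63.2% and 67.5% of all pore FPKM in the Zeb1 libraries and 47.1% and 41.6% in the control libraries. Of the 7, 5 were tested and 0 passed in limma, with 1 higher and 0 lower before adjustment (p under 0.05). Of all genes tested, 0.0837% were called higher and 0.112% lower, so few calls could be met in any list. Cacna1b, the N-type pore of presynaptic terminals, had 35.0 and 36.8 FPKM in the Zeb1 libraries, against 26.4 and 28.4 FPKM in the control libraries, a log2 difference of 0.38 with a standard error of 0.13 (limma adjusted p = 0.706). The L-type pore gene Cacna1c had a log2 difference of 0.53 with a standard error of 0.22 (limma adjusted p = 0.748), which is above the 0.49 of Cacna1h, and the P/Q-type pore gene Cacna1a had one of -0.27 with a standard error of 0.13 (limma adjusted p = 0.764). Cacna1s, the skeletal muscle pore gene, named after its values were seen, was under the level for testing, with 1.81 and 1.02 FPKM in the Zeb1 libraries, against 0.628 and 0.305 FPKM in the control libraries. Whether the T-type differences exceed those of the high-voltage pores was not tested.

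Auxiliary subunits, which set the trafficking and gating of high-voltage channels, gave 0 calls in limma among 11 of 16 genes tested, with 1 higher and 0 lower before adjustment (p under 0.05). Their median log2 difference was -0.07, or 0.04 without control replicate 1 and 0.0013 without Zeb1 replicate 1, and that of all genes tested was 0.00032. Cacng3, a stargazin-like subunit that also accompanies AMPA receptors, had 2.14 and 2.34 FPKM in the Zeb1 libraries, against 0.557 and 0.786 FPKM in the control libraries (limma adjusted p = 0.621). Cacna2d1, the alpha2delta subunit bound by gabapentin, had 41.5 and 40.8 FPKM in the Zeb1 libraries and 33.5 and 33.0 FPKM in the control libraries (limma adjusted p = 0.749). The beta subunit gene Cacnb1 had a log2 difference of -0.28 (limma adjusted p = 0.764).

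Genes known to regulate T-type channels or their transcription gave 0 calls in limma among 20 of 22 tested, with 0 higher and 1 lower before adjustment (p under 0.05), with a median log2 difference of -0.04. Camk2b, a subunit of the calcium- and calmodulin-dependent kinase CaMKII, which modulates CaV3.2, had 10.6 and 10.4 FPKM in the Zeb1 libraries, against 14.4 FPKM in both control libraries (limma adjusted p = 0.670). The immediate-early transcription factor Egr1 had 246 and 64.8 FPKM in the Zeb1 libraries and 38.7 and 23.9 FPKM in the control libraries (limma adjusted p = 0.721), with Zeb1 replicate 1 far above the rest. The syntaxin gene Stx1a, a component of the release machinery, had a log2 difference of 0.37 (limma adjusted p = 0.741).

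Channels that act together with T-type currents also gave 0 calls in limma, among 14 of 19 tested, with 0 higher and 3 lower before adjustment (p under 0.05). Their median log2 difference was -0.07, or 0.06 without control replicate 1. The 3 were the pacemaker channel Hcn3, the Kv4-binding protein Kcnip3 and the small-conductance potassium channel Kcnn2, with log2 differences of -0.58, -0.61 and -0.40 and limma adjusted p of 0.644, 0.703 and 0.721.

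Genes that handle calcium once it has entered the cell were likewise without calls. Of 21 store, pump and exchanger genes, 15 were tested and 0 passed in limma, with 0 higher and 1 lower before adjustment (p under 0.05). That gene, the sodium-calcium exchanger Slc8a2, had 20.7 and 21.1 FPKM in the Zeb1 libraries, against 30.4 and 26.9 FPKM in the control libraries (limma adjusted p = 0.691). The store-operated channel Orai1 and the IP3 receptor Itpr1 had log2 differences of -0.31 and -0.35. Of 18 calcium buffers and sensors, 9 were tested and 0 passed in limma, with 0 under 0.05 before adjustment, with a median of 0.14. Necab2, Cabp1 and Ncald, all EF-hand calcium-binding proteins, had log2 differences of 0.48, 0.31 and 0.27. Of 23 genes of calcium-dependent transcription, 21 were tested and 0 passed in limma, with 0 under 0.05 before adjustment, with a median of 0.15, or -0.12 without control replicate 2. The immediate-early gene Fos had 744 and 217 FPKM in the Zeb1 libraries and 138 and 70.1 FPKM in the control libraries (limma adjusted p = 0.721), Camkk2, a kinase that activates CaM kinases, had a log2 difference of -0.36 and the transcription factor gene Creb1 one of 0.49.

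Across these 7 lists, 95 of 126 genes were tested and 0 passed in limma, with 2 higher and 5 lower before adjustment (p under 0.05). Before adjustment, 3.23% of all genes tested were higher and 3.68% lower. Both Zeb1 libraries lay above both controls for 24.2% of the 95 genes and below both for 21.1%. For all genes tested these shares were 18.2% and 19.5%. Of the 95, 2 genes, Egr1 and Fos, had a log2 difference above 1 in size.

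**Figure D3:**
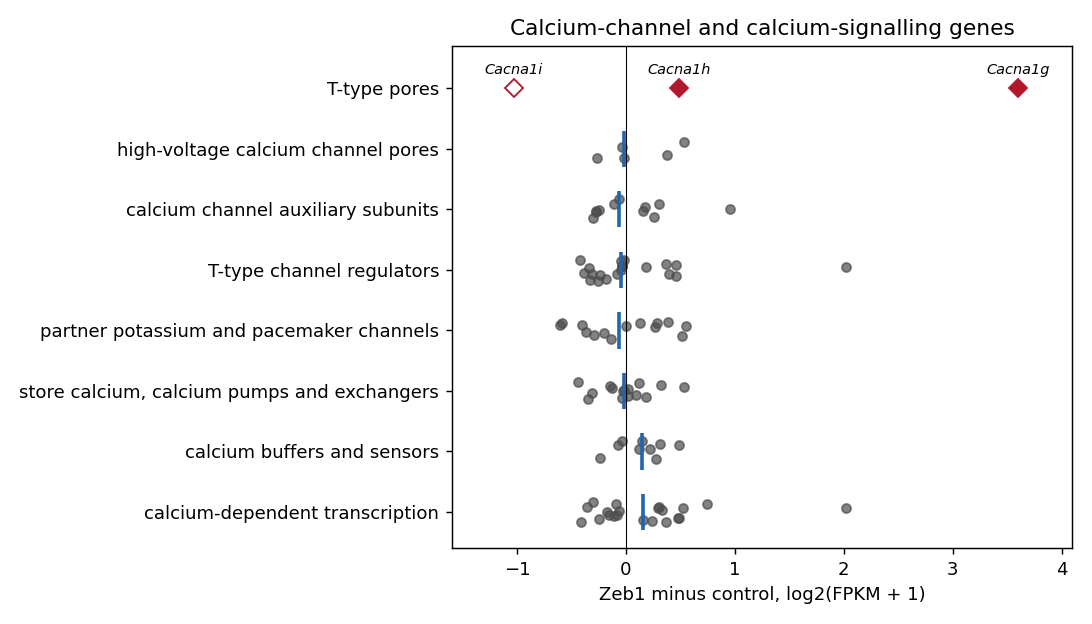
Log2 difference, Zeb1 minus control on log2(FPKM + 1), for the T-type pores (diamonds, open where the gene did not enter the fit) and for each tested gene of 7 lists (points, with a bar at the list median). Cacna1g, whose difference chose the family, lies at 3.60, and the list medians lie between -0.07 and 0.15.

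On the chromosome, the nearest 2 protein-coding genes on each side of each member were read, beginning with Cacna1g. Abcc3, an ABC transporter gene 15394 bp away, had 6.21 and 3.26 FPKM in the Zeb1 libraries, against 3.96 and 0.673 FPKM in the control libraries, and the groups overlapped (log2 difference 0.94 with a standard error of 0.65). Ankrd40, the next gene on that side, had 36.9 and 30.3 FPKM in the Zeb1 libraries and 34.9 and 27.6 FPKM in the control libraries. On the other side, Spata20, 4706 bp away, and Epn3 reached at most 0.0620 and 0.267 FPKM in any library. Around Cacna1i, Rps19bp1 and Atf4, the stress-response transcription factor gene, overlapped between the groups, with log2 differences of -0.13 and 0.05. Enthd1 and Grap2, on the far side, reached at most 0.0262 and 0.101 FPKM. Beside Cacna1h, the tryptase genes Tpsb2 and Tpsab1 and the somatostatin receptor gene Sstr5 were listed at 0 in all 4 libraries, and Tekt4 reached at most 0.0746 FPKM. Tpsg1, on the opposite strand, overlaps the Cacna1h locus by 158 bp. Reads there could not be assigned without strand, but Tpsg1 reached at most 0.182 FPKM.

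The gene closest to Cacna1g in its profile over the 4 libraries was Ebf3, a helix-loop-helix transcription factor gene of early neurons. Likeness was measured as the Euclidean distance between log2(FPKM + 1) values centred on each gene's mean, over all protein-coding genes tested. The distance of Ebf3 was 0.505, and the median distance of all genes was 3.64. Ebf3 had 24.4 and 22.6 FPKM in the Zeb1 libraries, against 1.56 and 1.12 FPKM in the control libraries. Lor, Mmp2, Ppp1r17 and Lmcd1 followed at distances of 0.891 to 1.48. Over 4 libraries such a distance mostly reflects the size of the difference between the groups.

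Cacna1i was matched most closely by Eef1a2, an elongation factor gene of neurons and muscle, at a distance of 0.0670 (median of all genes 1.09). Eef1a2 had 4.67 and 4.93 FPKM in the Zeb1 libraries, against 10.6 and 11.1 FPKM in the control libraries. Akap7, a kinase anchoring protein gene, Cxadr, an adhesion receptor gene, Helt, a helix-loop-helix repressor gene, and Ndrg4 came next, at distances of 0.0942 to 0.126. Because Cacna1i is so low, a given difference on this scale stands for a larger ratio in Cacna1i than in these genes. The control mean was 9.93 times the Zeb1 mean for Cacna1i, and the Zeb1 mean of Eef1a2 was 0.442 times its control mean. Cacna1h was closest to Pprc1, Pign, Spred2, Ppp1r13l and Ntng2, at distances of 0.0540 to 0.0618 (median of all genes 0.721).

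**Figure D4:**
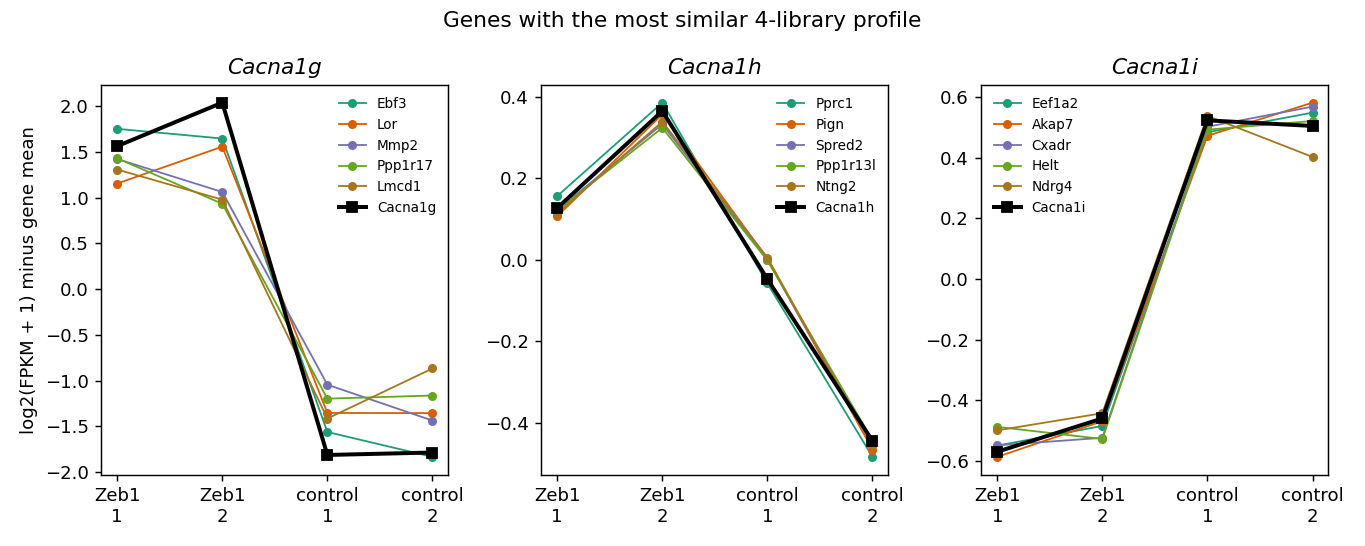
Log2(FPKM + 1) minus each gene's mean in the 4 libraries, Zeb1 left and control right, for each T-type gene (black squares) and the 5 protein-coding genes nearest to it; the lines join libraries only to guide the eye. Cacna1g is followed by Ebf3 at a distance of 0.505, and Cacna1i by Eef1a2 at 0.0670.

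Several cell types other than cortical excitatory neurons are known for T-type channels or for the genes that resemble Cacna1g here, and their markers were read beside its values. Cacna1g is high in thalamic neurons. Tcf7l2, a transcription factor gene of thalamic neurons, had 7.24 and 4.98 FPKM in the Zeb1 libraries, against 4.18 and 2.64 FPKM in the control libraries (limma adjusted p = 0.749). Prkcd, a protein kinase C gene on the same list, had a log2 difference of -0.33 (limma adjusted p = 0.764). Gbx2, a defining thalamic marker, had 0.246 and 0.0619 FPKM in the Zeb1 libraries, against 0.0514 and 0.0255 FPKM in the control libraries, and Olig3 reached at most 0.188 FPKM. The 10 thalamic markers summed to 365 and 433 FPKM in the Zeb1 libraries and to 424 and 437 FPKM in the control libraries, and 0 of 6 tested were called in limma, with 0 under 0.05 before adjustment. Most of that sum is Lhx2 and Slc17a6, which cortical cells also express. Ebf3 and Nhlh2 are on the list of Cajal-Retzius cells, the reelin-producing cells of the cortical surface, and the 10 genes of that list summed to 48.7 and 44.2 FPKM in the Zeb1 libraries, against 22.4 and 18.4 FPKM in the control libraries. Ebf3 and Nhlh2 made up most of the Zeb1 sums, and the rest of the list together was not higher in the Zeb1 libraries. Of 5 tested, 2 had a positive and 3 a negative log2 difference, and 1 was called higher, Ebf3. Calb2 and Cacna2d2 overlapped between the groups, with log2 differences of -0.24 and -0.30. Nhlh2 had 10.3 and 6.43 FPKM in the Zeb1 libraries, against 2.49 and 1.78 FPKM in the control libraries (limma adjusted p = 0.469). Reelin itself (Reln) had 8.17 and 8.84 FPKM in the Zeb1 libraries, against 13.1 and 9.80 FPKM in the control libraries, and the groups did not overlap. Of the list members under the level for testing, Ebf2 had 1.07 and 1.10 FPKM in the Zeb1 libraries, against 0.108 and 0.0594 FPKM in the control libraries. Ndnf had 0.769 and 1.18 FPKM in the Zeb1 libraries, against 0.457 and 0.760 FPKM in the control libraries. The defining marker Lhx5 had 0.341 and 0.327 FPKM in the Zeb1 libraries, against 0.279 and 0.178 FPKM in the control libraries. Trp73 and Lhx1, which also define these cells, overlapped between the groups and reached at most 0.805 and 0.436 FPKM. The part of thalamic or Cajal-Retzius cells in the Cacna1g values was not tested. No list member was at 0 in all libraries for either cell type.

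Interneuron markers, 12 in all, summed to 63.9 and 71.3 FPKM in the Zeb1 libraries and to 65.4 and 70.9 FPKM in the control libraries, with 0 of 11 tested called in limma and 0 at an unadjusted p under 0.05. The 8 subplate markers found summed to 57.4 and 45.6 FPKM in the Zeb1 libraries, against 56.9 and 65.3 FPKM in the control libraries, with 0 of 6 called in limma, with 1 higher and 1 lower before adjustment (p under 0.05). These were Nr4a2, with a log2 difference of 0.65, and the secreted ligand gene Nxph4, with one of -1.48. Markers of mural, endothelial and meningeal cells were low, and each sum was higher in the Zeb1 libraries with no overlap. Mural markers summed to 11.2 and 7.39 FPKM in the Zeb1 libraries, against 6.25 and 6.44 FPKM in the control libraries. Endothelial markers summed to 10.8 and 7.56 FPKM in the Zeb1 libraries, against 6.68 and 6.58 FPKM in the control libraries. Meningeal markers summed to 3.20 and 3.06 FPKM in the Zeb1 libraries, against 2.31 and 1.92 FPKM in the control libraries. Of these 3 lists, 3, 3 and 0 genes were tested, all with a positive log2 difference, 0 were called in limma and 0 were under an unadjusted p of 0.05. All 10 microglial markers were tested and had a positive log2 difference, with a median of 1.32, 0 called in limma and 0 under an unadjusted p of 0.05. Both Zeb1 libraries lay above both controls for 4 of the 10, beside 18.2% of all genes tested. The summed markers were 453 FPKM in Zeb1 replicate 2 and 459 FPKM in control replicate 1, with control replicate 2 the lowest. The part of microglial, mural, endothelial or meningeal cells in the values of Cacna1g, Cacna1h and Cacna1i was not tested. Of the cortical excitatory list, 10 of 10 genes were tested and 0 were called in limma, with 0 higher and 2 lower before adjustment (p under 0.05), Tbr1 and Emx1, with log2 differences of -0.75 and -0.94.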

How the data were processed

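RNA was measured in 4 libraries, 2 per group. The deposited table holds FPKM per gene as the authors made them. The tools STAR, Cufflinks and DESeq2 and the build GRCm38 are named per the submitters' processing notes; versions and roles are not given in the sources used here. It held 48395 genes and 1 emptied line. Names were restored for 27 genes turned into dates, starts were raised by 1 to match GENCODE M21, and the longest locus was taken where a symbol repeated. The groups were compared in R 4.3.3 with limma 3.58.1 on log2(FPKM + 1), with an intensity trend, two-sided, over the 14330 genes that averaged 1 FPKM or more, and Benjamini-Hochberg adjustment at 0.05. Figures were drawn with matplotlib 3.10.9. The members, the gene lists and the rule for named genes were chosen with earlier results of these data known. The rule took the members, up to 3 genes per pathway list and 2 per cell type list by p, the 5 nearest profiles and the nearest 2 protein-coding neighbours per side. For the microglial, mural, endothelial and interneuron lists, sums are given in place of those genes. In simulations of this comparison with 14330 genes, the share called was 0% for 2-fold changes, 6.82% for 4-fold and 25.2% for 8-fold, beside 0.9 unchanged genes on average. The simulated noise had the spread that the limma fit itself assumes, so the 0.9 does not measure false calls among very short genes. Without absolute depth, counting intervals are not given. Alternatives were other pseudocounts, filters, scalings and moderation, a replicate block, protein-coding genes only, and leaving out each library. Some genes are not reported here.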

Additional observations from a re-analysis of the deposited data

How the results depend on the processing

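With 2 libraries per group, the counts of genes called depended on the settings. The differences of the members kept their sign in all 15 alternatives. Except under the scalings, that was fixed in advance, because both Zeb1 libraries lay on 1 side of both controls. Against 12 genes higher and 16 lower in limma, no filter gave 1 and 0, a mean of at least 5 FPKM gave 10 and 10, robust moderation gave 20 and 16, protein-coding genes only gave 3 and 0, and a replicate block gave 5 and 6. Leaving out any 1 library leaves 1 library in a group, so no count is given for it. The causes were not tested. Among the alternatives that kept all 4 libraries, the Cacna1g call was made in 5 and missed in the rest. The limma adjusted p of Cacna1g was 0.00938 at its lowest there, and 0.239 without the filter. Over all 15 alternatives its log2 difference lay between 3.36 and 3.83. That of Cacna1i was -1.52 and -2.63 with pseudocounts of 0.5 and 0.1. With 1 library of a group left out, the share of Cacna1g in the T-type sum is that of the remaining library. These are the shares already given, 54.9% and 58.9% in Zeb1 cells and 9.91% and 12.9% in control cells. They add no further check. The replicate numbers do not pair the samples by the labels. The deviations of same-numbered libraries correlated at 0.37 across genes, and the replicate block gave Cacna1g an adjusted p of 0.104. The 7 lists gave 0 calls under every alternative that kept all 4 libraries. The log2 differences of the genes named from them kept their sign. That too was fixed in advance except under the scalings, since these genes did not overlap between the groups. Of 105 list medians, 18 moved by more than the spread between replicates. Low values such as those of Cacna1i cannot be given an error from depth.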
